A study of Oryza sativa with 18 samples.

Results

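The genes described here are those whose transcripts differed between csa mutant and wild type rice embryos at both 3 h and 6 h of imbibition, with attention to how the mutant effect changed between these times. A gene was taken when its identifier stood in the authors' lists of called genes at both times, where a call needed a false discovery rate (FDR) of 0.05 and a log2 fold change of at least 1 in size. That gave 326 genes of the 3149 called at any time in the series, or 31.1% of the genes called at 3 h and 13.7% of those called at 6 h. An identifier with 2 entries at 3 h (LOC_Os09g28400, an alpha-amylase) was left out. The authors' values at 3 h and 6 h therefore chose these genes, and the directions and sizes of their ratios are descriptions, not findings. The smallest log2 fold changes that entered were 1.000 in size at 3 h and 1.004 at 6 h, and 72 of the 326 genes lay under 1.1 in size at either time. Genes just below these limits are not analysed here.

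CSA (CARBON STARVED ANTHER) is an R2R3 MYB transcription factor known for controlling sugar partitioning to the rice anther. A dry rice embryo holds messenger RNA stored during seed maturation, including messages for storage proteins, dehydrins and small heat shock proteins. On imbibition these stored messages are degraded while genes for respiration, transport, wall loosening and growth are switched on.

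RNA sequencing was done on total RNA from embryos of germinating seeds of the wild type line 9522 and of the csa mutant, with 3 libraries per genotype and time and RNA from 5 seeds per extraction. The groups used are wild type and csa at 3 h and 6 h, 12 libraries in all, and the 6 libraries at 12 h served as a separate look. All seeds were surface-sterilized and germinated in the same medium. CSA itself (LOC_Os01g16810) was called at 6 h alone and so is not among the 326 genes. It had 92, 81 and 201 raw counts in csa against 310, 305 and 380 in wild type at 6 h, lower in every csa library, with a log2 fold change of -1.38 in the authors' deposited table. The labels do not describe the csa allele or its background, nor whether replicates came from separate plants, so the tests measure the spread between these libraries, which may be technical. In whole embryos, fewer cells of a type and less RNA per cell cannot be told apart.

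The deposited tables hold raw read counts. Scaled counts are raw counts divided by a library factor between 0.948 and 1.103, recovered within each time from the authors' fold changes, so that depth was nearly even within a time. The depth at 3 h relative to 6 h is not known, and total counts per library were not used here. A log2 ratio is csa over wild type from mean scaled counts, with a standard error (SE) from n = 3 per group. The difference of the ratio is 6 h minus 3 h, and any unequal depth between the times cancels in it. The genes averaged between 6.75 and 45140 raw counts over the 12 libraries, with a median of 116. The csa library of replicate 2 at 3 h stood farthest from its group, at a median absolute log2 distance of 0.546, against 0.196 to 0.417 for the other 11 libraries.

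Of the 326 genes, 232 were higher in csa at both times and 49 were lower at both. Another 28 were higher at 3 h and lower at 6 h, and 17 were lower at 3 h and higher at 6 h, so 45 genes (13.8%) turned over. With TMM library factors computed on the listed genes alone, a setting chosen after seeing the data, 100 genes had opposite signs. Among all genes tested by the authors, 4.91% were called at 3 h, 3.49% as higher and 1.42% as lower in csa. At 6 h 10.3% were called, 6.03% as higher and 4.30% as lower. Nothing is read from these shares, because the calls chose the genes. The genotypes did not overlap in scaled counts at both times for 303 genes. The share without overlap was 96.1% of all genes listed at 3 h and 97.3% of those listed at 6 h. The median difference of the log2 ratio over the 324 genes with a finite ratio was 0.16, with quartiles of -0.27 and 0.79.

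**Figure D1:**
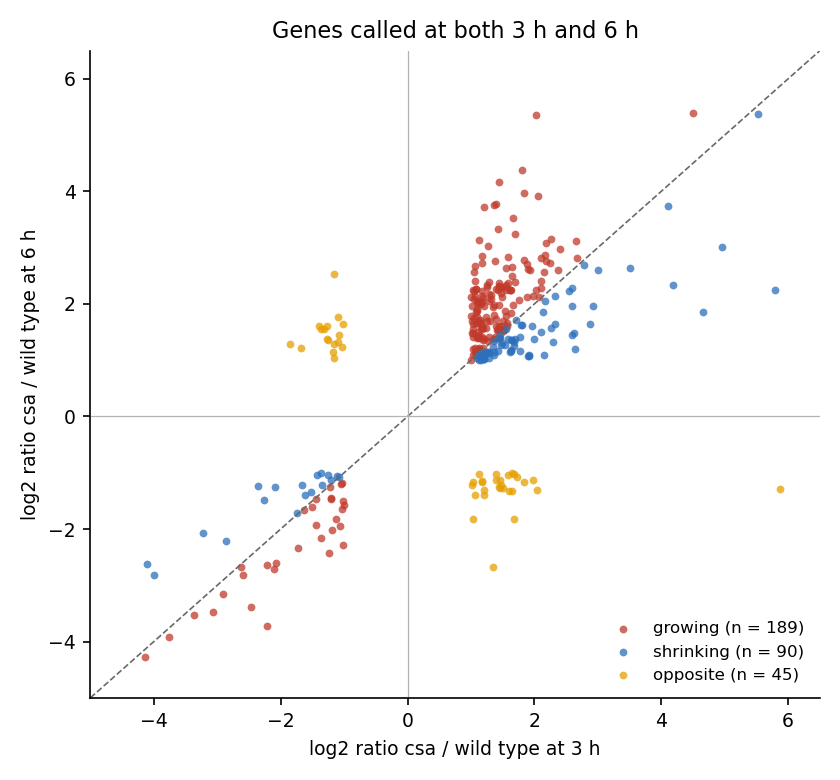
Log2 ratio of csa over wild type at 6 h against that at 3 h, 1 point per gene with a finite ratio. Ratios are from mean scaled counts, n = 3 libraries per group, and the dashed line marks equal ratios. The 45 genes of opposite sign fill the upper left and lower right corners, and the empty band around 0 on each axis is set by the authors' fold threshold.

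Among the 279 same-direction genes with a finite ratio, the ratio was larger in size at 6 h for 189 ("growing") and smaller for 90 ("shrinking"), so 67.7% grew. Here and below, grew and shrank give the sign of this size change alone, not the outcome of a test. Without csa replicate 2 at 3 h the counts were 220 growing and 59 shrinking. Most of these movements were small beside the replicate error. The absolute difference was below its own SE for 155 of the 279 genes and above 2 SE for 39. A size change of 1 log2 unit or more was seen for 36 growing and 13 shrinking genes. The genotype by time term was tested with edgeR's quasi-likelihood test. With Benjamini-Hochberg adjustment carried to all 23117 genes the authors tested at 6 h, which gives an upper bound of the adjusted p, 0 of the 279 genes passed 0.05, and the smallest bound was 1.00. At an unadjusted p under 0.05 the same test counted 33 genes, or 11.8%, of which 27 were growing and 6 shrinking. DESeq2 counted 36 at that level and 0 after the same adjustment. The libraries whose calls chose the genes also gave these p-values, and the fits held the chosen genes alone. Here and below, the p-values of this term are therefore conditional on that choice. The counts of genes under 0.05 are descriptions. For the 45 genes of opposite sign no test is given, since their calls fix a difference of about 2 or more.

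Among the genes with a descriptive annotation that were higher in csa at 3 h and lower at 6 h, the difference was largest in size for a peptide transporter gene and a CER1-like gene. The peptide transporter gene LOC_Os01g67630, whose protein class carries small peptides released from reserves, had raw counts of 167, 141 and 69 in csa against 41, 65 and 51 in wild type at 3 h. At 6 h its counts were 114, 165 and 105 in csa against 800, 1041 and 673 in wild type. The csa libraries lay above every wild type library at 3 h and below every one at 6 h, and csa itself stood at nearly the same counts at both times. The log2 ratio was 1.34 ± 0.38 at 3 h and -2.67 ± 0.34 at 6 h, a difference of -4.01 ± 0.51.

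A CER1-like gene (LOC_Os02g56920), of a family that makes wax alkanes of the plant surface in Arabidopsis, had raw counts of 71, 139 and 196 in csa against 28, 45 and 31 in wild type at 3 h. At 6 h the counts were 491, 595 and 182 in csa against 1013, 1206 and 1067 in wild type. Both genotypes stood higher at 6 h, wild type far more so, and they did not overlap at either time. Its log2 ratios of 2.04 ± 0.44 and -1.31 ± 0.46 differed by -3.35 ± 0.64. An ERECTA-like gene (LOC_Os02g53720), related to a receptor kinase of organ growth in Arabidopsis, had low counts of 26, 31 and 35 in csa against 13, 9 and 10 in wild type at 3 h. By 6 h there were 47, 32 and 32 in csa against 78, 103 and 109 in wild type. The csa values hardly differed between the times while those of wild type stood several times higher at 6 h, and the difference of the log2 ratio was -2.93 ± 0.33.

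Membrane channels were part of this set. A delta-tonoplast intrinsic protein gene (LOC_Os06g22960), which encodes a water channel of the vacuole membrane, had 774, 1029 and 946 raw counts in csa against 468, 507 and 355 in wild type at 3 h. At 6 h the libraries held 1180, 1499 and 728 in csa against 2038, 2604 and 2605 in wild type. All csa values were above those of wild type first and below them later, with log2 ratios of 1.12 ± 0.20 and -1.03 ± 0.34. A potassium channel gene similar to KCO1 of Arabidopsis (LOC_Os07g01810) differed by -2.71 ± 0.35 between the times. The remaining genes of this direction named by the rule were an NB-ARC gene of the disease resistance class (LOC_Os11g03650, a difference of -3.11 ± 0.49), a gene similar to a pollen-specific kinase partner (LOC_Os02g17240, -3.01 ± 0.63) and an ARK-like gene (LOC_Os01g02300, -2.95 ± 0.49). A gene annotated only as similar to F-171-b1_1 (LOC_Os08g04460) differed by -2.87 ± 0.51 and a CCT domain gene (LOC_Os02g05470) by -2.80 ± 0.35. Lower in the order were a GIT2-like ARF GTPase-activating gene (LOC_Os02g10480, -2.58 ± 0.46), a gene for an 11 kD protein of photosystem II (LOC_Os03g21560, -2.54 ± 0.46) and a lectin-like receptor kinase gene (LOC_Os12g38610, -2.35 ± 0.39). Chosen after their values were seen, a gene similar to DRE-binding protein 2 (LOC_Os06g11860), of a class of drought-response factors, had log2 ratios of 1.58 ± 0.33 and -1.04 ± 0.31. A GH3-like gene (LOC_Os01g55940), of the family that conjugates auxin to amino acids, had 1.01 ± 0.30 and -1.21 ± 0.35.

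The genes that were lower in csa at 3 h and higher at 6 h held several that attach sugars to hormones and pigments or export small molecules. A gene similar to indole-3-acetate beta-glucosyltransferase (LOC_Os09g34230), an enzyme class that conjugates auxin, had 4632, 5044 and 5261 raw counts in csa against 14776, 10555 and 11955 in wild type at 3 h. The 6 h libraries gave 5040, 5839 and 4760 in csa against 2671, 2023 and 1567 in wild type. The csa counts at the separate times overlapped each other, while wild type stood above them at 3 h and below them at 6 h. The log2 ratio was -1.25 ± 0.17 and then 1.36 ± 0.28, a difference of 2.60 ± 0.33.

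The same shape was seen for a cis-zeatin O-glucosyltransferase-like gene (LOC_Os04g46980), whose enzyme class stores cytokinin as a glucoside. Its raw counts were 78, 56 and 79 in csa against 237, 172 and 165 in wild type at 3 h. At 6 h they were 95, 77 and 86 in csa against 26, 22 and 44 in wild type. The genotypes were apart at both times, and the difference of the log2 ratio was 2.92 ± 0.35. Among the other sugar-transferring genes, a UDP-glucosyltransferase family gene (LOC_Os01g45110) differed by 2.87 ± 0.49 and an anthocyanidin glucosyltransferase-like gene (LOC_Os01g64910) by 2.87 ± 0.65. A MATE family gene (LOC_Os04g48290), of a class of efflux carriers, had 1103, 844 and 689 raw counts in csa against 1528, 1782 and 2563 in wild type at 3 h. Its 6 h counts were 1173, 1434 and 850 in csa against 555, 377 and 380 in wild type. Again csa lay below all wild type libraries and later above them, with a difference of 2.53 ± 0.44.

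A proline oxidase gene (LOC_Os10g40360), for a step of proline breakdown in mitochondria, had 368, 338 and 313 raw counts in csa against 1062, 700 and 825 in wild type at 3 h. By 6 h there were 136, 237 and 170 in csa against 108, 57 and 50 in wild type. Both genotypes stood lower at 6 h in raw counts, and the difference of the log2 ratio was 2.65 ± 0.51. A HAD-superfamily hydrolase gene (LOC_Os01g52230) differed by 2.88 ± 0.51, a gene annotated with a receptor extracellular region (LOC_Os02g48570) by 2.66 ± 0.63, and a callose synthase gene (LOC_Os01g34930), for a wall glucan, by 2.21 ± 0.32. Chosen after their values were seen, a glutathione S-transferase gene (LOC_Os09g20220) had log2 ratios of -1.16 ± 0.16 and 1.28 ± 0.35. A 12-oxophytodienoic acid reductase gene (LOC_Os06g11260), of an enzyme family that includes jasmonate synthesis, had -1.18 ± 0.41 and 1.14 ± 0.31.

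**Figure D2:**
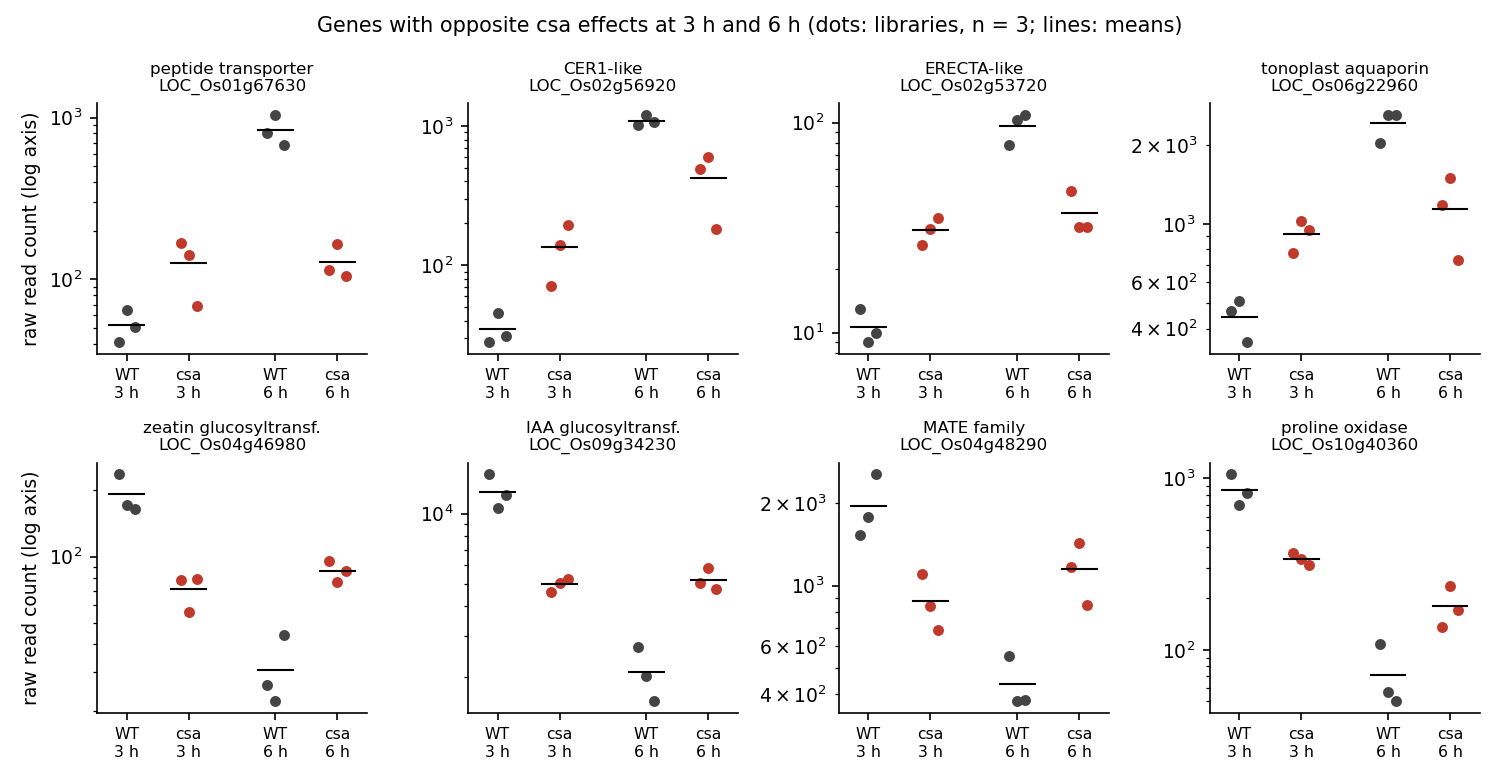
Raw read counts per library (log axis) of 8 genes of opposite sign; dots are libraries, n = 3 per group, and lines are means. In the upper row wild type passes from below csa at 3 h to above it at 6 h, and in the lower row from above to below; relative depth between the times is not known.

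Because the calls fix only the difference between the genotypes, the raw counts were used to describe the level of each genotype at the 2 times. Which genotype has the larger ratio over time is fixed by the calls and is no finding. For the 28 genes higher in csa at 3 h and lower at 6 h, the median raw count at 6 h was 8.98 times that at 3 h in wild type, with 28 of 28 genes above, and 1.31 times in csa. For the 17 genes of the other order it was 0.178 times in wild type, with 0 of 17 above, and 1.17 times in csa. In raw counts the wild type moved further than csa in 28 of 28 and in 15 of 17 genes. Over all 324 genes with a finite ratio it did so in 239, so this is not particular to the genes that turned over. These counts of genes assume equal depth at the 2 times. Unequal depth between the times would shift both genotypes alike. The wild type median moved further in both sets for any depth at 6 h between 0.457 and 3.43 times that at 3 h.

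The same description was made for the same-direction genes. In the 158 genes higher in csa with a growing ratio, the median raw count at 6 h was 0.371 times that at 3 h in wild type and 0.565 times in csa. In the 31 growing genes lower in csa it was 1.38 times in wild type and 0.971 times in csa. For shrinking genes the median was 0.699 times in wild type and 0.543 times in csa for the 72 that were higher in csa, and on the log2 scale 0.14 in wild type against 0.63 in csa for the 18 that were lower. The order of the genotypes within each set follows from how growing and shrinking were defined and is no finding. These ratios over time were not tested.

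**Figure D3:**
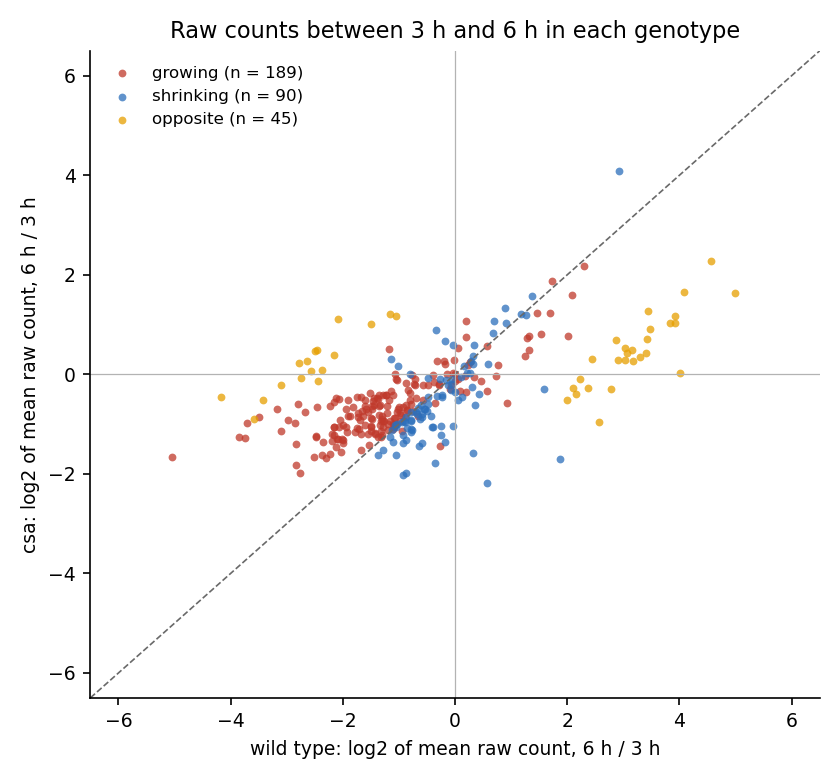
Log2 of mean raw counts at 6 h over 3 h in csa against wild type, 1 point per gene with a finite ratio. The dashed line marks equal movement, and unequal depth between the times would shift all points along it. The opposite-sign gene LOC_Os01g36580, at 7.10 in wild type and -0.05 in csa, lies outside the axes. Genes of opposite sign spread widely along the wild type axis and lie closer to 0 on the csa axis, with medians of 8.98 and 1.31 times in the right-hand group and 0.178 and 1.17 times in the left-hand group.

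Among the 158 growing genes higher in csa, the 6 with a descriptive annotation and the smallest p in the genotype by time test included 2 small heat shock genes, an ERF transcription factor gene and a peroxiredoxin gene. None passed the adjusted bound with all libraries. An Hsp20 domain gene (LOC_Os02g48140), for a small heat shock protein that holds unfolded proteins in solution, had 279, 300 and 136 raw counts in csa against 110, 84 and 81 in wild type at 3 h. At 6 h the libraries held 186, 153 and 23 in csa against 9, 8 and 4 in wild type. The genotypes did not overlap, although csa replicate 3 at 6 h was far below the other csa libraries. The log2 ratio was 1.45 ± 0.36 and then 4.16 ± 0.70, a difference of 2.71 ± 0.79 with an unadjusted edgeR p of 0.000835. Without that library the difference in the edgeR fit was 3.20 and the adjusted p bound 0.0302. The library left out was the csa library nearest wild type at 6 h, so its removal widened the ratio. Leaving out any other library did not take this gene past the bound, and the bound does not allow for the number of refits.

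A cytosolic class I small heat shock gene (LOC_Os01g04360) had 1716, 1867 and 1071 raw counts in csa against 496, 446 and 468 in wild type at 3 h. The 6 h libraries gave 1185, 993 and 374 in csa against 93, 25 and 7 in wild type. Wild type replicate 1 at 6 h was the highest of its group and still below every csa library. The difference of the log2 ratio was 2.58 ± 1.04, with an unadjusted edgeR p of 0.000862. Without wild type replicate 1 at 6 h the difference was 3.97 in the edgeR fit with an adjusted p bound of 0.00528. Leaving out the highest wild type library widened the ratio, and leaving out any other library did not take this gene past the bound. Here too the bound does not allow for the number of refits. This gene lies beside 3 others annotated as class I small heat shock genes at the start of chromosome 1, and the handling of reads that fit more than 1 copy was not given in the sources used here.

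Other growing genes named by the rule were a PREG domain gene (LOC_Os02g03294, a difference of 2.14 ± 1.00), an ERF domain transcription factor gene (LOC_Os02g42585, 2.54 ± 0.92) and a gene annotated only as OSIGBa0092M08.2 (LOC_Os04g33920, 1.91 ± 0.71). A 1-Cys peroxiredoxin gene (LOC_Os07g44440), for an antioxidant enzyme typical of mature seed embryo and aleurone, had 165, 154 and 139 raw counts in csa against 83, 60 and 70 in wild type at 3 h. Its 6 h counts were 213, 148 and 292 in csa against 32, 14 and 48 in wild type. The groups were apart at both times and the log2 ratio was 1.18 ± 0.16 and then 2.86 ± 0.47. The unadjusted edgeR p of the difference was 0.00335.

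Growing ratios among genes lower in csa were led by a beta-expansin gene similar to EXPB4 (LOC_Os10g40730), for a wall-loosening protein. Its raw counts were 161, 92 and 144 in csa against 338, 275 and 226 in wild type at 3 h, and 261, 264 and 153 against 1056, 1341 and 1009 at 6 h. All csa libraries lay below wild type at each time, and the gap was wider at 6 h, with a difference of -1.27 ± 0.42 and an unadjusted edgeR p of 0.0159. The 5 next genes of this class with a descriptive annotation had unadjusted p values of 0.0601 or more. They were a 2OG-Fe(II) oxygenase gene (LOC_Os04g49210, -1.18 ± 0.69), a peptidase A1 gene (LOC_Os01g04710, -0.89 ± 0.42), a seven-in-absentia type gene of the ubiquitin ligase class (LOC_Os01g03190, -1.50 ± 0.89), an oligopeptide transporter gene (LOC_Os04g44320, -0.57 ± 0.38) and a MYB-related gene (LOC_Os05g48010, -0.70 ± 0.66).

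Shrinking ratios were led by a class II chitinase gene (LOC_Os05g04690), for an enzyme that cuts fungal wall chitin. It had 143, 368 and 134 raw counts in csa against 14, 6 and 7 in wild type at 3 h, and 37, 32 and 73 against 13, 11 and 16 at 6 h. Wild type counts were alike at the 2 times while those of csa stood lower at 6 h. The log2 ratio was 4.66 ± 0.68 and then 1.86 ± 0.36, a difference of -2.80 ± 0.77. Its unadjusted edgeR p of 0.000224 was the smallest of all same-direction genes. A heat shock transcription factor gene (LOC_Os02g13800) had 1420, 2253 and 2306 raw counts in csa against 289, 386 and 335 in wild type at 3 h, and 435, 590 and 719 against 219, 198 and 374 at 6 h. Here too the csa counts stood lower at 6 h with the groups still apart, and the difference was -1.44 ± 0.38 (unadjusted edgeR p of 0.00512). Its difference was negative, while those of the other 7 genes in the heat shock list were positive.

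The other shrinking genes higher in csa were a pyridoxal phosphate-dependent transferase gene (LOC_Os05g07720, a difference of -3.53 ± 1.30 that rests on wild type counts of 1, 0 and 2 at 3 h), a resistance protein candidate gene (LOC_Os03g60810, -1.24 ± 0.60), a gene similar to the circadian coupling factor ZGT (LOC_Os05g41490, -1.05 ± 0.63) and a globulin 1 gene (LOC_Os03g46100, -0.81 ± 0.42). Among genes lower in csa, a DNA polymerase delta-like gene (LOC_Os08g06620) had 8, 18 and 10 raw counts in csa against 192, 194 and 227 in wild type at 3 h, and 24, 13 and 30 against 111, 168 and 205 at 6 h. The groups were far apart at both times, with log2 ratios of -4.00 ± 0.40 and -2.81 ± 0.36. A RAV-like transcription factor gene (LOC_Os01g04800) and a second beta-expansin gene (LOC_Os10g40720), neighbour of the growing one, had differences of 0.84 ± 0.47 and 1.16 ± 1.15. The rest, a subtilisin-like protease gene (LOC_Os03g55350), a serine carboxypeptidase gene (LOC_Os01g61690) and a leucine-rich repeat gene (LOC_Os01g06520), had unadjusted edgeR p values of 0.416 or more.

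**Figure D4:**
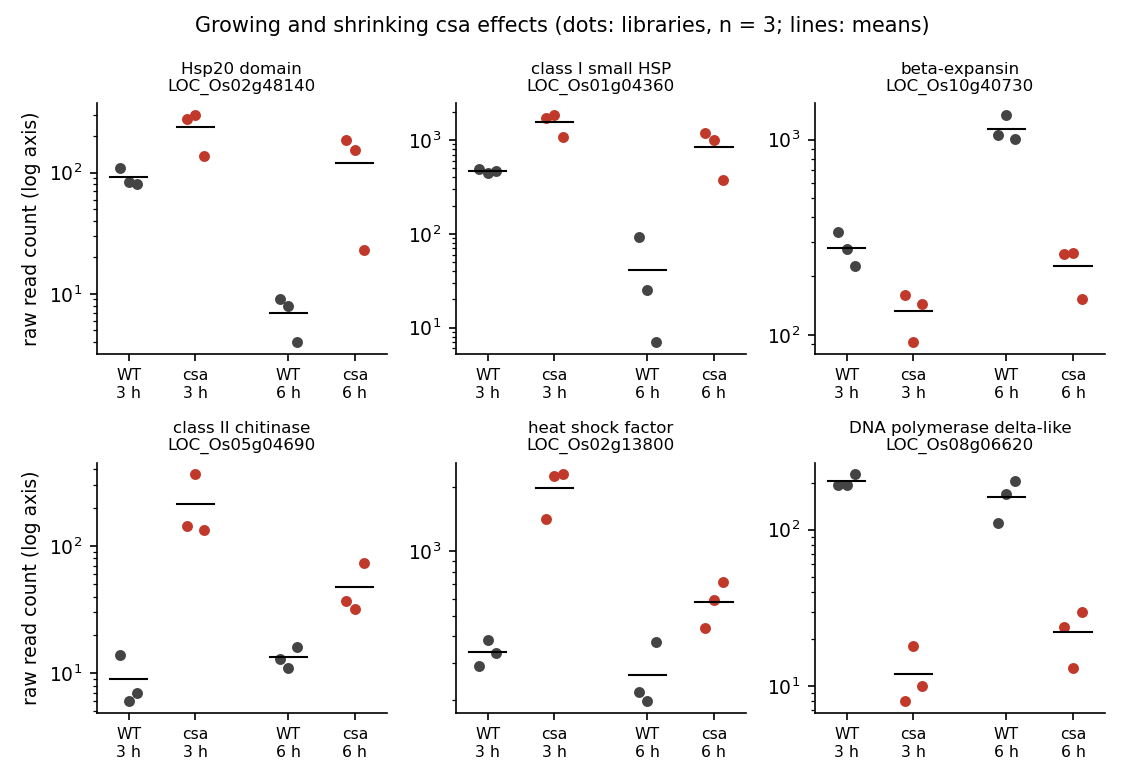
Raw read counts per library (log axis) of 6 genes with the same direction of the csa effect at both times; dots are libraries, n = 3 per group, and lines are means. The gap between genotypes is wider at 6 h for the first 3 genes and narrower for the last 3. In the Hsp20 domain and class I small HSP panels csa replicate 3 at 6 h stands below its group. Wild type replicate 1 at 6 h stands above its group in the class I small HSP panel.

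Many genes kept nearly the same ratio. A lactoylglutathione lyase gene (LOC_Os08g09250, GLYI-11 in RefSeq), of methylglyoxal detoxification, had log2 ratios of 1.00 ± 0.13 and 1.00 ± 0.21. An 18 kDa oleosin gene (LOC_Os03g49190), for an oil body coat protein, had 1.12 ± 0.32 and 1.11 ± 0.13, with csa above wild type in all libraries. A phosphoenolpyruvate carboxylase kinase gene (LOC_Os02g56310) had 1.08 ± 0.28 and 1.09 ± 0.17, and a sulphate transporter gene (LOC_Os03g06520) 1.46 ± 0.41 and 1.45 ± 0.19. On the lower side an extensin family gene (LOC_Os01g41120), for a structural wall protein, had -1.23 ± 0.15 and -1.26 ± 0.33, and a SAND domain gene (LOC_Os01g57240) -1.11 ± 0.19 and -1.06 ± 0.26. A peptidase A1 gene (LOC_Os02g48860) and a protein kinase gene (LOC_Os04g48760) differed by 0.14 ± 0.31 and -0.15 ± 0.41. An alpha-amylase gene (LOC_Os02g52700), AMY1C of the panel, had 1.57 ± 0.47 and 1.67 ± 0.37.

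Grouped by search terms on the annotation text, the lists are described by their counts beside the 326 genes, of which 45 turned over, 189 grew and 90 shrank with a median difference of 0.16. Of 8 heat shock and chaperone genes, 7 grew and 1, the transcription factor, shrank, and the median difference was 1.39. An unadjusted edgeR p under 0.05 went to 5 of the 8, beside 33 of the 279 same-direction genes (11.8%). They were the shrinking transcription factor and 4 growing genes, the latter including an Hsp82-type gene (LOC_Os04g01740, chosen after its values were seen, 1.76 ± 0.79) and a class I small heat shock gene (LOC_Os01g04340, 1.87 ± 0.67). Of the 8, 4 are neighbours at the start of chromosome 1. The p-values counted here are conditional on the choice of genes, as stated above, and no test of the list is given.

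All 11 late embryogenesis, dehydrin and desiccation genes were higher in csa at both times, as were 232 of the 326, and 8 of them grew, with a median difference of 0.76. The desiccation-related gene LOC_Os05g05920 had log2 ratios of 4.50 ± 0.34 and 5.40 ± 0.76, and the water stress gene WSI76 (LOC_Os07g48830) 1.84 ± 0.41 and 2.78 ± 0.69. A gene of the dormancy and auxin associated family (LOC_Os09g26620), caught by the term for dormancy, differed by 0.95 ± 0.61. The dehydrin RAB16D (LOC_Os11g26750) shrank, from 2.33 ± 0.31 to 1.64 ± 0.41. None of the 11 had an unadjusted edgeR p under 0.05, and with the adjustment above 0 passed. All 5 genes of the AP2/ERF, NAC and WRKY list had growing ratios, at a median of 0.73, among them a TINY-like gene (LOC_Os06g07030, 0.95 ± 0.60) and an ERF domain gene (LOC_Os08g45110, 0.73 ± 0.86). The search terms of this list did not catch the DRE-binding protein gene above, which turned over, or the RAV-like gene, which shrank. The list therefore need not hold every such factor among the 326 genes.

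The list of cytochrome P450, glycosyltransferase and terpenoid genes held 6 genes of opposite sign among 12, against 45 among 326. Of these 6, 5 were lower in csa at 3 h and higher at 6 h: the 4 glucosyltransferase genes above and a cytochrome P450 gene (LOC_Os07g23570, chosen after its values were seen, with log2 ratios of -1.04 ± 0.31 and 1.24 ± 0.38). The sixth, a P450 gene (LOC_Os03g04650, likewise chosen), went the other way, from 1.48 ± 0.42 to -1.21 ± 0.23. The other 6 of the list grew, 3 higher and 3 lower in csa. No test of the list is given.

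Of 16 defence genes, 2 turned over, 6 grew and 8 shrank, with a median of -0.09, and 3 ERF genes of this list were caught by the word pathogenesis. Of 6 seed storage and oil body genes, which include the peroxiredoxin, 2 grew and 4 shrank, at a median of -0.14, among them a second globulin 1 gene (LOC_Os08g03410, -0.38 ± 0.75). The 6 photosynthesis and plastid genes had 1 turned over and 5 growing, among them a thiazole synthesis gene (LOC_Os07g34570, 1.17 ± 0.67) and the photosystem II gene psbY (LOC_Os08g02630, 0.70 ± 0.58). Of 14 other transcription factor genes, 10 grew and 4 shrank, with a B3 family gene (LOC_Os03g42230) at 0.91 ± 0.41. A RING/FYVE/PHD zinc finger gene (LOC_Os07g43740), which the ubiquitin list also holds, stood at 1.21 ± 0.61. Of 6 ubiquitin, F-box and RING genes 4 grew and 2 shrank, among them a RING finger gene (LOC_Os01g16120, 0.60 ± 0.65) and, caught by the word ring, a beta-ring hydroxylase gene (LOC_Os10g38940, 0.77 ± 0.68).

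Of 7 nitrogen and peptide transport genes 1 turned over, 4 grew and 2 shrank, with an oligopeptide transporter 4-like gene (LOC_Os02g46860) at -0.26 ± 0.59. The 7 cell cycle, histone and cytoskeleton genes had 1, 4 and 2, led among the same-direction genes by a histone H4 gene (LOC_Os03g02780, 1.54 ± 0.65, unadjusted edgeR p of 0.00793), and its search terms also caught the GIT2-like gene. The 9 peroxidase, glutathione and redox genes split into 6 growing and 3 shrinking at a median of 0.00, with a P450 monooxygenase gene (LOC_Os01g43720) at 1.08 ± 0.67. The glutathione S-transferase gene above, which turned over, was not caught by the terms of this list. The 11 protein kinase and phosphatase genes had 3 turned over, 7 growing and 1 shrinking. The terms of this list did not catch the ERECTA-like gene above, which turned over. For the 8 other transport genes the counts were 3, 3 and 2. The 5 cell wall genes had 1, 3 and 1, and the 5 peptidase genes 0, 1 and 4.

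Markers of tissues beside the embryo could be looked at only where they were called, so a marker alike in both genotypes could not appear. None of the glutelin and prolamin genes, which are typical of endosperm, was called at both times, although 4 were called at 3 h and 2 at 6 h. The only alpha-amylase gene among the 326, of a class made by aleurone and scutellum, summed to between 16 and 39 raw counts in the csa libraries and 7 to 9 in wild type at 3 h, and to 59 to 109 against 21 to 38 at 6 h. Its part in the results was not tested.

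**Figure D5:**
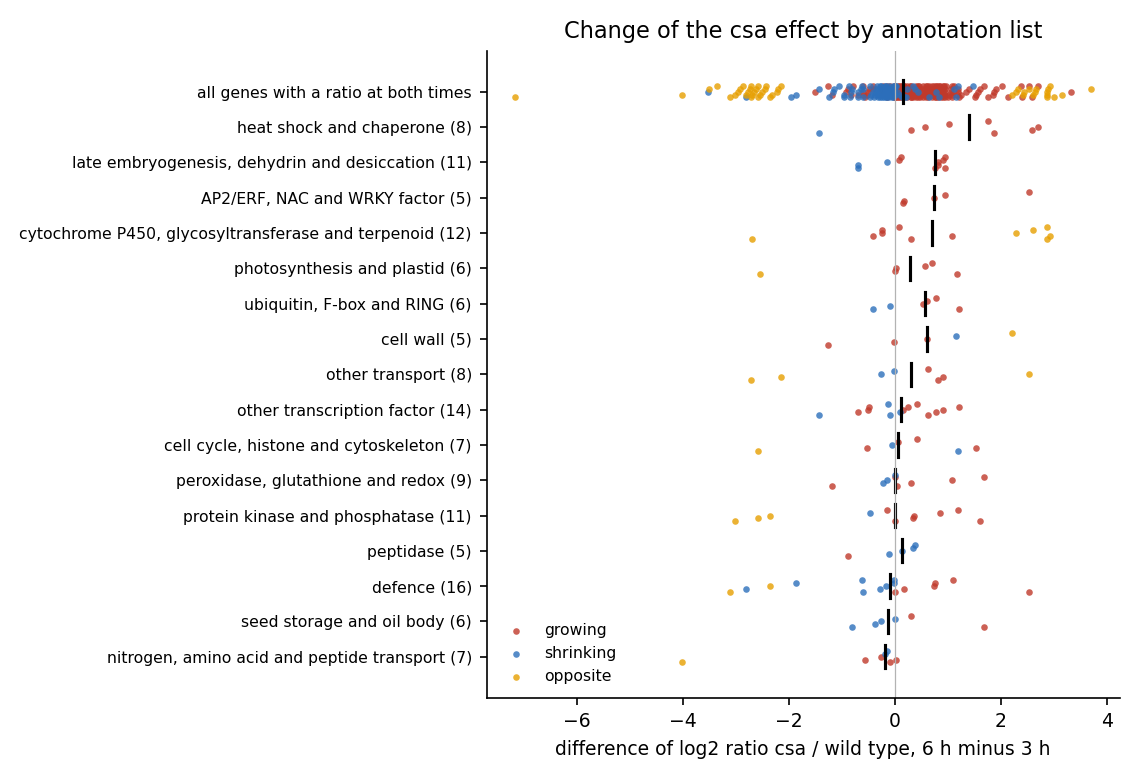
Difference of the log2 ratio of csa over wild type, 6 h minus 3 h, for the genes of each annotation list with 5 or more genes; dots are genes, black bars are medians, and the number of genes is in brackets. The heat shock list has the median of 1.39, the list with glucosyltransferases splits into 5 opposite-sign genes on the far positive side, 1 on the far negative side and growing genes nearer 0.

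By position, 41 of the 326 genes (12.6%) lie at the start of chromosome 1, taken as LOC_Os01g numbers under 10000. That stretch held 6.01% of all genes called at 3 h and 4.31% of those called at 6 h. Only 1 of the 41, the ARK-like gene, turned over, 29 grew and 9 shrank. For some growing genes csa replicate 3 at 6 h stood far below its group. Examples chosen after their values were seen are LOC_Os01g05289 (37, 24 and 1 raw counts), LOC_Os01g05610 (178, 166 and 44) and LOC_Os01g06740 (111, 29 and 0). For others, such as LOC_Os01g05940 (293, 315 and 486), it was the highest. Counts for the stretch without this library are not given. Of the 41 genes, 21 were lower in csa at both times, against 28 of the 285 elsewhere. The median absolute difference was 0.60 there and 0.61 elsewhere. The neighbouring genes LOC_Os01g05510 and LOC_Os01g05530 had 0 raw counts in all 6 wild type libraries of 3 h and 6 h, so no ratio can be given. The second, a Brix domain gene, had 75, 99 and 104 raw counts in csa at 3 h and 123, 96 and 142 at 6 h, and the first 61, 66 and 92, then 57, 79 and 97. The csa counts were in the same range at both times. Against a floor of 3 counts over the wild type group, these were at least 95.2-fold and 122-fold higher for LOC_Os01g05530 and at least 74.8-fold and 78.5-fold higher for LOC_Os01g05510. The floor covers counting error only.

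The libraries at 12 h had no part in choosing the genes. The third wild type library at 12 h carries the mutant in its genotype field, against its title and description, and was taken as wild type. It held 0 raw counts of LOC_Os01g05510, as did the other wild type libraries. At 12 h the authors called 0.400% of 21239 genes tested, and 17 of the 326 genes, or 5.21%. Of the 45 genes of opposite sign 0 were among them, while 10 growing, 5 shrinking and both genes without wild type counts were. Of the 17, 10 lie at the start of chromosome 1, which held 24.7% of all calls at 12 h. Without that stretch 7 of the 285 genes were called at 12 h. No matching share over all genes can be given, because the number of genes tested outside the stretch is not known.

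Of the 17 genes, 16 had the same direction at all 3 times, and all 17 had the same direction at 12 h without the third wild type library. LOC_Os01g05530 moved by over 1.5 times without it, and had 1, 0 and 0 wild type counts in the separate libraries. A conserved hypothetical gene (LOC_Os03g42235) had raw counts of 112, 213 and 115 in csa against 3, 7 and 6 in wild type at 12 h, and log2 ratios of 5.52 ± 0.58, 5.37 ± 0.86 and 4.79 ± 0.41 in order of time. Its ratio was nearly steady, with csa above wild type in every library. The group 1 late embryogenesis gene LOC_Os08g23870 went from 2.26 ± 0.32 to 1.57 ± 0.23 and stood at 1.61 ± 0.33 at 12 h. A dehydration stress-induced gene (LOC_Os06g11812) had 1.44 ± 0.24, 1.60 ± 0.22 and 1.63 ± 0.41. The peptidase A1 gene LOC_Os01g04710, growing on the lower side, stood at -1.39 ± 0.14, and the RAV-like gene LOC_Os01g04800 at -1.02 ± 0.18. The small heat shock gene LOC_Os01g04360 stood at 2.76 ± 0.53 at 12 h, between its values at 3 h and 6 h, and at 3.28 without the third wild type library. Its ratio at 12 h rests on low raw counts of 34, 40 and 26 in csa against 2, 5 and 8 in wild type.

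The exception was a non-specific lipid transfer protein gene (LOC_Os08g03690, chosen after its values were seen), of a family that binds lipids in the seed and at plant surfaces. At 3 h it had 9467, 10307 and 7376 raw counts in csa against 5327, 4026 and 3291 in wild type, and at 6 h 4802, 4688 and 3484 against 1842, 546 and 627. At 12 h it had 1003, 2198 and 906 in csa against 5904, 7157 and 2098 in wild type. The csa libraries were above wild type at 3 h and 6 h, and at 12 h below it, except that the raw count of csa replicate 2 was above that of wild type replicate 3. In scaled counts the groups did not overlap. The log2 ratios were 1.18 ± 0.27, 2.15 ± 0.65 and -1.88 ± 0.56, and the FDR at 12 h in the authors' deposited table was 0.00626. Without the third wild type library the ratio at 12 h was -2.25.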

How the data were processed

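RNA sequencing counts of csa and wild type embryos at 3 h, 6 h and 12 h were used as the authors deposited them, as raw counts per gene for called genes only. Per the file headers, the tables also give the authors' log2 fold changes (csa over wild type), and p-values with FDR values. DESeq2 is named in the submitters' processing notes, while aligner, counting, strand and genome build were not given in the sources used here. As checked, the number of sample columns left unmatched was 0.

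From these files, library factors were recovered by least squares (scipy 1.17.1) so that ratios of mean scaled counts gave the deposited fold changes (residual SD 0.00085 and 0.00248 log2 units at 3 h and 6 h). The number of genes the authors tested (21397, 23117 and at least 21239) came from the ratio of FDR to p. The genotype by time term was fitted with edgeR 4.0.16 in R 4.3.3 over the 326 genes with counts in 12 libraries, the only genes such a fit can hold, and with DESeq2 1.42.0 as an alternative. Adjusted p bounds assume 23117 tests. The fit was tested on simulated data, with the same adjustment. It called 1 of 100 genes given a change of 1 log2 unit, 39 of 100 given 2, and 0 of 126 given none. A count of 0 past the bound therefore does not show that changes of this size were absent. Precision rests on 3 libraries per group, and depth per library is unknown.

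The genes and lists were chosen with earlier results of these data known. Named genes are, by direction, the 8 opposite-sign genes with the largest difference, the 6 growing and 6 shrinking with the smallest p, the 4 steadiest, 3 per list with 5 or more genes, the 8 with the smallest FDR at 12 h, and panel genes. Opposite and steady genes needed groups without overlap, steady genes also an SE of the difference under 0.5, and all but the list, 12 h and panel genes a descriptive annotation. Lists without 5 genes are not described. RefSeq (ASM3414082v1) matched 262 of the 326 genes and served for names only. No sequences were used. Libraries were left out in turn, and scaling, count limits and the replicate block were varied.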

Additional observations from a re-analysis of the deposited data

Results flagged for a closer look

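The csa effect had opposite signs at 3 h and 6 h, with every csa library on 1 side of every wild type library at 3 h and on the other side at 6 h, for 22 of the named genes. The difference between the times was not tested for them, because the calls that chose the genes fix its size. It was negative (log2 ratio at 6 h minus 3 h) for LOC_Os01g67630 (-4.01), LOC_Os02g56920 (-3.35), LOC_Os11g03650 (-3.11), LOC_Os02g17240 (-3.01), LOC_Os01g02300 (-2.95), LOC_Os02g53720 (-2.93), LOC_Os08g04460 (-2.87), LOC_Os02g05470 (-2.80), LOC_Os07g01810 (-2.71), LOC_Os02g10480 (-2.58), LOC_Os03g21560 (-2.54), LOC_Os12g38610 (-2.35) and LOC_Os06g22960 (-2.15). It was positive for LOC_Os04g46980 (2.92), LOC_Os01g52230 (2.88), LOC_Os01g45110 (2.87), LOC_Os01g64910 (2.87), LOC_Os02g48570 (2.66), LOC_Os10g40360 (2.65), LOC_Os09g34230 (2.60), LOC_Os04g48290 (2.53) and LOC_Os01g34930 (2.21). The rule for opposite-sign genes required groups without overlap, so the separation of the genes it named was fixed by the choice. The list rule, which had no such condition, named LOC_Os07g01810, LOC_Os06g22960, LOC_Os02g10480, LOC_Os12g38610, LOC_Os03g21560 and LOC_Os01g34930. Groups were apart at both times for 42 of the 45 genes of opposite sign and for 303 of all 326 genes.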

How the results depend on the processing

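Leaving out each of the 12 libraries in turn gave 44 to 45 genes of opposite sign, 163 to 220 growing and 59 to 116 shrinking, 24 to 51 genes at an unadjusted edgeR p under 0.05, and 0 to 1 past the adjusted bound. The extremes of 59, 220 and 51 came without csa replicate 2 at 3 h. Without the start of chromosome 1, 7 of the 17 genes called at 12 h and 4 of the 8 heat shock genes were left. TMM factors from the listed genes alone, a setting for the class counts chosen after seeing the data, gave 100 genes of opposite sign. These factors centre lists that lean to higher in csa, and moved the median log2 ratio by -0.96 at 3 h and -1.41 at 6 h and the difference by -0.44, while the growing share was 62.5%. With a size change of 0.5 log2 units or more, 107 genes grew and 28 shrank. The replicate number as a block gave 42 genes at an unadjusted p under 0.05 and 0 past the bound. Same-numbered csa and wild type libraries correlated at 0.011, 0.357 and 0.315 at 3 h and -0.054, 0.232 and 0.308 at 6 h. Differently numbered libraries ranged from -0.351 to 0.073 at 3 h and from -0.326 to 0.251 at 6 h. The lowest value at each time joined replicates 2 and 3. The main fit did not take the numbers as pairs, and these values do not settle whether they are. Of 1350 differences recomputed for named genes, 1298 stayed within 1 SE, 52 moved further and 0 of the opposite-sign genes reversed. Low counts limit 99 genes that averaged under 50 raw counts.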

Other observations

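Values outside the rule for named genes, chosen after they were seen, follow. The lowest and highest differences of all belonged to a DUF6 transmembrane gene (LOC_Os01g36580) at -7.16 ± 1.68, which rests on 0, 0 and 1 raw counts in wild type at 3 h, and a conserved hypothetical gene (LOC_Os03g04740) at 3.70 ± 0.64, with 98, 82 and 91 raw counts in wild type at 3 h and 7, 2 and 6 at 6 h. In csa the second gene had 46, 25 and 45 and then 24, 16 and 45. A GID1L2-like gene (LOC_Os08g37010), annotated after the gibberellin receptor, had a growing ratio with a difference of 3.33 ± 1.63, and wild type counts of 1, 0 and 0 at 6 h. The neighbouring genes LOC_Os05g07710 (a WD40 repeat gene) and LOC_Os05g07720 were both higher in csa and had differences of opposite sign, 1.56 ± 0.88 and -3.53 ± 1.30.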
